A study of Mus musculus with 21 samples.

Results

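The 10 genes described here are transcription regulators of the developing lung, namely Nkx2-1, Gata6, Id2, Elf5, Barx2, Tbx2, Tbx3, Tbx4, Tbx5 and Tcf21. A gene was represented by the probe set carrying its symbol alone, and where several existed by the brightest on average over the 21 arrays. All 10 were found among 22180 genes, each with exactly 1 such probe set, so no choice between probe sets had to be made. Expression was measured in whole lungs of wild-type Balb/c mouse fetuses at E18.5, with 1 array per fetus. The CS group held 12 fetuses (6 males and 6 females) whose dams had inhaled mainstream cigarette smoke during pregnancy until the day before collection. The AIR group held 9 fetuses (5 males and 4 females) of dams kept in filtered air, whose mothers the sample labels call untreated. The comparison asks whether smoke breathed by the mother changes the regulators that build the lung, and how each regulator follows the maturity of the epithelium from fetus to fetus.

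NKX2-1 is the homeodomain factor that marks the respiratory endoderm from its first appearance and switches on surfactant and secretoglobin genes in the epithelium. GATA6, a zinc finger factor, acts beside it in the maturing distal epithelium, while ID2, an inhibitor of helix-loop-helix factors, and ELF5, an ETS factor, mark the dividing distal tips of the branching mouse lung. The T-box factors work mainly in the mesenchyme around those tips. TBX4 and TBX5 sustain Fgf10 and branching, whereas TBX2 and TBX3 are repressors that keep the mesenchyme dividing by holding down inhibitors of the cell cycle. In the mouse genome Tbx2 lies beside Tbx4 and Tbx3 beside Tbx5, so each linked pair joins a repressor and an activator. TCF21 is a helix-loop-helix factor of lung mesenchyme and of the lipid-storing fibroblasts that arise from it, and BARX2 is a homeobox factor of muscle and of some branching epithelia.

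RefSeq promoter sequences of build GRCm38.p6 ran from 250 bases before to 50 bases after an annotated transcript start. Those of 5 regulators were used, namely Nkx2-1, Id2, Elf5 (with 2 starts), Tbx4 and Tcf21. Gata6 was left out of the search without a recorded reason, and Barx2, Tbx2, Tbx3 and Tbx5 had no sequence in the source used. The sequences used were searched on both strands for the T-box core GGTGTGA (present in 4.0% of 32851 promoters of the same length), the GATA word AGATAA (11.2%), the NKX2-1 core CAAGTG (13.6%) and the E-box CAGCTG bound by TCF21-type factors (16.3%). The windows of Tbx4 and of the second Elf5 start belong to internal starts within the annotated gene, and the others to its first base. The windows printed are those of Nkx2-1, which passed no test of exposure or maturity over all fetuses, of Tcf21, which was lower after CS, and of the second Elf5 start, where the T-box core occurred. Capitals mark matches to the words searched, and each sequence is written 5′ to 3′ along the strand of the gene.
Nkx2-1 promoter (chr12:56536859-56537158, minus strand): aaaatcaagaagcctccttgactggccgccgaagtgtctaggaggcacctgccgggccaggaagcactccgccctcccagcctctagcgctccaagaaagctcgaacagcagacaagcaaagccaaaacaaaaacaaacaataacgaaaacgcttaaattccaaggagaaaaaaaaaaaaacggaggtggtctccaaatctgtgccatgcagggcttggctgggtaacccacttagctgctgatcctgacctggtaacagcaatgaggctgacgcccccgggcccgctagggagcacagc
Tcf21 promoter (chr10:22820094-22820393, minus strand): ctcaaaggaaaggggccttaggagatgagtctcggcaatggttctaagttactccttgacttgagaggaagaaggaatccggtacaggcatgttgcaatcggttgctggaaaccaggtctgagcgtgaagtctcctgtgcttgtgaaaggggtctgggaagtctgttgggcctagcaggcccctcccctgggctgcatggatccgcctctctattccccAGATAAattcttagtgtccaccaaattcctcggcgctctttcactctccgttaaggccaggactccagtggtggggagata
Elf5 second promoter (chr2:103423818-103424117, plus strand): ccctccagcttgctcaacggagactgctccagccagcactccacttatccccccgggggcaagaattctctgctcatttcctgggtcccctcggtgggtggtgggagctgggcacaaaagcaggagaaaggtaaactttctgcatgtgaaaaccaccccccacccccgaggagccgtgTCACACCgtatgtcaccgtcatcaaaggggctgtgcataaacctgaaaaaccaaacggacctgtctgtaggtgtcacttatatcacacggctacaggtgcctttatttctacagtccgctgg
The Nkx2-1 window held no match to any of the words. The Tbx4 window held 1 E-box beginning at position -243 counted from its internal start, and the E-box was also found once each in the windows of Id2 and of the first Elf5 start. In the Tcf21 window the single match was the GATA word at position -31, and the second Elf5 window held the T-box core on the reverse strand at position -72. These matches are words in a sequence and were not measured as binding sites.

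Values are log2 intensities after robust multi-array averaging (RMA), on which a difference of 1 is a doubling of intensity, and array medians lay between 2.1 and 2.2. Array correlations ran from 0.95 to 0.971, and sex labels matched the Xist signal in 21 of 21 fetuses. Animal numbers in the labels fall into 2 ranges with a wide gap between them, a lower range of 11 fetuses (8 CS and 3 AIR) and a higher range of 10 (4 CS and 6 AIR). What the numbers stand for is not stated, and exposure was unevenly spread over them, so values are also given within each range. A male and a female were taken per litter, and the labels do not tie littermates together, so tests over all fetuses may treat related fetuses as independent. Markers of the labelled tissue were bright: the mean of 8 lung genes was 8.48 ± 0.26 (SD, n = 12) after CS and 8.75 ± 0.16 (SD, n = 9) after AIR. Heart genes varied widely between arrays, with list means from 3.69 to 6.95 in CS and from 3.96 to 6.42 in AIR lungs. Thymus and oesophagus genes were raised in some. Altogether 10 arrays stood more than 1.5 above the median for at least 1 of 5 lists of other tissue. The mean of 8 thyroid genes, which mark another organ that uses NKX2-1, stayed between 1.54 and 1.94 in every lung.

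The regulators of the epithelial lineage, Nkx2-1 and Gata6, passed no test between the groups over all fetuses. Nkx2-1 ranged from 6.05 over a median of 6.31 to 6.67 in CS lungs and from 6.07 over a median of 6.26 to 6.52 in AIR lungs. The groups overlapped almost completely, with means of 6.31 ± 0.19 (SD, n = 12) and 6.30 ± 0.14 (SD, n = 9), a difference of 0.01 with a 95% confidence interval from -0.15 to 0.18 (exact permutation p = 0.884, limma adjusted p = 0.988). The probe set of Gata6 read 6.12 to 6.70 in CS lungs with a median of 6.36, and 6.17 to 6.67 in AIR lungs with a median of 6.52. Here 9 of 12 CS lungs lay below the AIR mean, yet the difference of -0.10 (SE 0.08) passed no test (exact permutation p = 0.212, limma adjusted p = 0.836).

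Neither of the distal tip regulators passed a test between the groups over all fetuses. Id2 lay between 6.70 and 7.26 in CS lungs with a median of 6.87, against 6.68 to 7.19 with a median of 7.01 in AIR lungs. Its difference was -0.07 (95% confidence interval -0.23 to 0.09, exact permutation p = 0.36). Elf5 spanned 4.92 to 5.63 with a median of 5.21 after CS and 4.88 to 5.49 with a median of 5.30 after AIR, a difference of -0.05 (95% confidence interval -0.23 to 0.14, exact permutation p = 0.597). The highest Elf5 value of all, 5.63, belonged to the CS female numbered 7, the lung with the lowest maturity index of the series.

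Barx2 was lower in CS lungs. Its values ran from 1.08 over a median of 1.64 to 1.94 after CS and from 1.47 over a median of 1.89 to 2.07 after AIR. Of the 12 CS lungs, 11 lay below the AIR mean and 5 below the lowest AIR lung. The means of 1.55 ± 0.26 (SD, n = 12) and 1.85 ± 0.19 (SD, n = 9) differed by -0.30 (SE 0.10, 1.23-fold, exact permutation p = 0.0101, limma adjusted p = 0.506). This probe set was dim, with a mean of 1.68 below the median of every array and above only 37.0% of probe sets, a range in which signal lies close to background. Its fold fell under 1.2, at a difference of -0.26, without the CS male numbered 2. It is the only regulator that a filter on mean values of at least 4 removed. In whole lung, fewer cells of a type and less RNA per cell cannot be told apart.

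Among the T-box genes the repressor Tbx3 was lower in CS lungs, while its paralog Tbx2 and the activators Tbx4 and Tbx5 were not called. Tbx3 ranged from 6.11 over a median of 6.62 to 7.02 in CS lungs and from 6.54 over a median of 6.93 to 7.36 in AIR lungs. The groups overlapped, but 11 of 12 CS lungs lay below the AIR mean and 4 below the lowest AIR lung. The means were 6.64 ± 0.27 (SD, n = 12) and 6.94 ± 0.29 (SD, n = 9), a difference of -0.30 with a 95% confidence interval from -0.55 to -0.06 (1.23-fold, exact permutation p = 0.0226, limma adjusted p = 0.562). The Tbx3 difference fell under the fold limit of 1.2, at -0.26, -0.25 and -0.26, without the CS female numbered 7 or the AIR males numbered 2 and 4.

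Tbx2 lay between 5.24 and 5.94 after CS with a median of 5.77, and between 5.36 and 5.95 after AIR with the same median of 5.77. The difference was 0.05 (95% confidence interval -0.12 to 0.23, exact permutation p = 0.524). The 3 lowest Tbx2 values, 5.24 in the CS female numbered 8, 5.36 in the AIR male numbered 3 and 5.38 in the AIR female numbered 9, all came from arrays with raised heart or thymus genes, whose part in the values was not tested. Across the 21 lungs Tbx2 had a Pearson r of -0.49 with the heart genes and -0.42 with the thymus genes. Other regulators also read lower where thymus genes were raised, with r of -0.57 for Nkx2-1, -0.54 for Tbx4, -0.49 for Gata6, -0.48 for Tbx5 and -0.43 for Tcf21, and Tbx4 had -0.45 with the heart genes. Tbx4 values were tight, 6.78 to 7.22 with a median of 6.99 in CS lungs and 6.78 to 7.15 with a median of 6.97 in AIR lungs, and differed by 0.03 (95% confidence interval -0.12 to 0.17, exact permutation p = 0.686). For Tbx5 the CS lungs ran from 7.02 over 7.44 to 7.60 and the AIR lungs from 7.14 over 7.39 to 7.66, a difference of -0.03 (95% confidence interval -0.20 to 0.14, exact permutation p = 0.686). Within a lung, the Tbx3 value exceeded that of Tbx2 by 0.89 ± 0.29 (SD, n = 12) after CS and by 1.25 ± 0.23 (SD, n = 9) after AIR, whereas Tbx5 exceeded Tbx4 by 0.40 ± 0.20 (SD, n = 12) and 0.46 ± 0.18 (SD, n = 9). These pairs were chosen after the values were known, so the gaps are given as a description, and they compare probe sets, not amounts of RNA.

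Tcf21, the mesenchymal helix-loop-helix factor, was slightly lower after CS. It ranged from 8.89 over a median of 9.12 to 9.38 in CS lungs and from 9.10 over a median of 9.24 to 9.53 in AIR lungs. Of the CS lungs, 9 of 12 lay below the AIR mean and 5 below the lowest AIR lung. The difference of -0.17 (SE 0.08, 1.12-fold) had an exact permutation p of 0.0293 and a limma adjusted p of 0.644, and its fold stayed under the limit of the study.

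**Figure D1:**
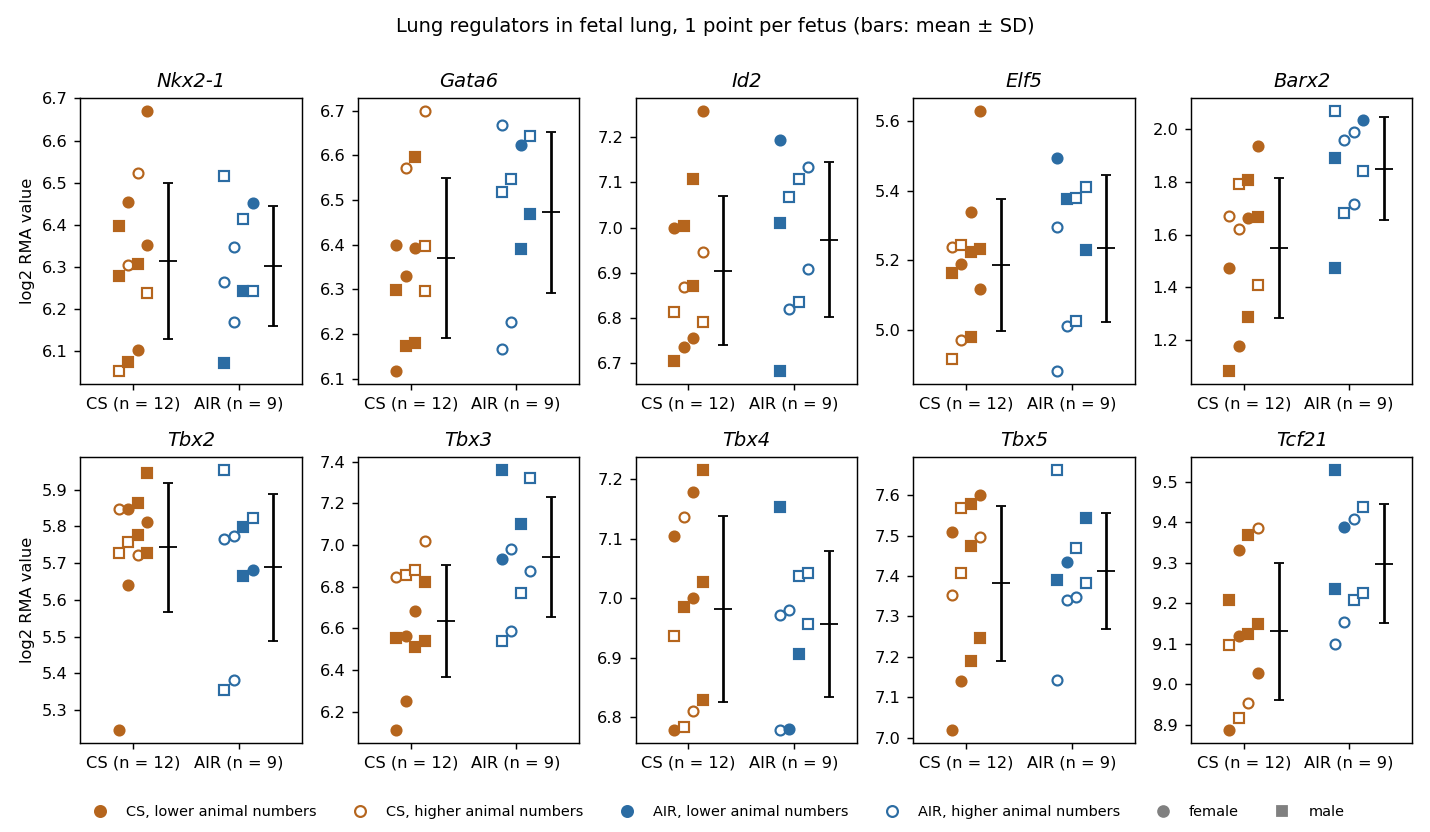
Log2 RMA value of each regulator (vertical axes, scaled per gene) in every CS and AIR lung (horizontal axis), with filled points for lower and open points for higher animal numbers, circles for females, squares for males, and black bars for mean ± SD. Points of CS and AIR overlap for all 10 genes, with 5 CS points of Barx2, 5 of Tcf21 and 4 of Tbx3 below the lowest AIR point.

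In the fit over all 40543 probe sets, the threshold used in the study (a fold of more than 1.2 in either direction and p under 0.05 before adjustment) was passed by 2 of 10 regulators, Barx2 and Tbx3, both lower after CS, and by 0 in the other direction. Over all probe sets 2.19% passed it as lower and 4.41% in either direction. The median difference of the regulators was -0.06, against 0.001 over all probe sets. With the false discovery rate held at 10%, limma called 0 regulators and 0 probe sets of the whole array, where the lowest adjusted p was 0.348, while 3 regulators had an unadjusted p under 0.05. Leaving out the 10 arrays with raised genes of other tissue, a choice made after seeing the data, gave -0.53 for Barx2, -0.44 for Tbx3 and -0.13 for Tcf21 (limma adjusted p = 0.575, 0.665 and 0.866). Of the AIR lungs only the male numbered 4 and the females numbered 6 and 8 then remained. The CS lungs that remained were mostly of the lower animal numbers.

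The Tbx3 difference was found among the fetuses with lower animal numbers. There the 8 CS lungs ran from 6.11 over a median of 6.55 to 6.82, and the 3 AIR lungs read 6.93, 7.10 and 7.36. Every CS lung lay below every AIR lung, with means of 6.50 ± 0.23 (SD, n = 8) and 7.13 ± 0.21 (SD, n = 3) and a difference of -0.63 (SE 0.16, 1.54-fold, limma adjusted p = 0.0729). The exact permutation p of 0.00606 is the smallest that 165 regroupings can give, and a limma fit to those 11 arrays alone gave an adjusted p of 0.17. In the higher range the 4 CS lungs stood at 6.84, 6.86, 6.88 and 7.02, inside the AIR spread of 6.54 to 7.32 (6 fetuses), and the difference was 0.06 (95% confidence interval -0.25 to 0.36, exact permutation p = 0.767). The effects in the ranges differed by -0.68 (SE 0.21, limma adjusted p = 0.439). Tbx3 was the only regulator past the study threshold in the lower range, where 8.25% of probe sets were called, and the only 1 of 10 whose groups did not overlap there, against 3.17% of all probe sets. It was also the only regulator with an unadjusted p under 0.05 for the difference between ranges, against 6.76% of probe sets. In the higher range 0 regulators were called, against 4.27%, and 0 had an unadjusted limma p under 0.05. The maturity index introduced further down split in the same way, at 7.80 ± 0.31 (SD, n = 8) and 8.61 ± 0.05 (SD, n = 3) in the lower range and 8.30 ± 0.12 (SD, n = 4) and 8.24 ± 0.16 (SD, n = 6) in the higher range, for CS and AIR in turn.

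Barx2 and Tcf21 kept their direction in both ranges. Barx2 differed by -0.29 in the lower range (exact permutation p = 0.2) and by -0.25 in the higher range (exact permutation p = 0.0381). For Tcf21 the differences were -0.23 (exact permutation p = 0.0545) and -0.17 (exact permutation p = 0.148). Gata6 read -0.18 in the lower and 0.03 in the higher range, with intervals from -0.45 to 0.08 and from -0.22 to 0.28. The remaining 6 regulators lay between -0.13 and 0.09 in either range, and all their 95% confidence intervals held 0.

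**Figure D2:**
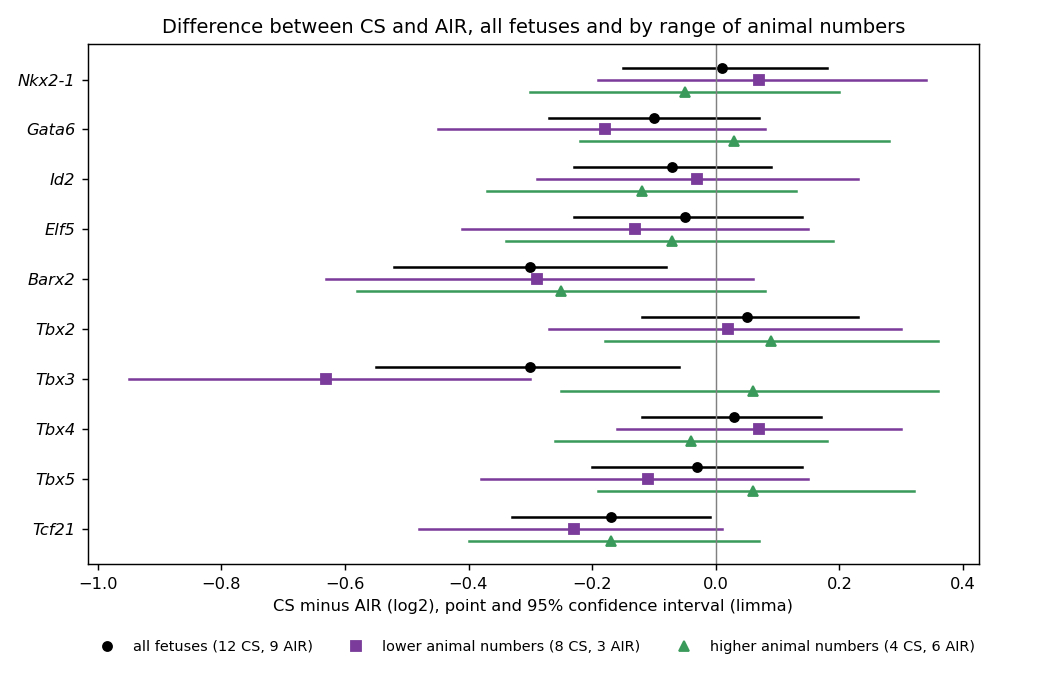
Difference between CS and AIR (log2, horizontal axis) of each regulator with 95% confidence intervals, for all 21 fetuses and for the lower and higher animal numbers. Tbx3 stands at -0.63 in the lower and 0.06 in the higher range, while Barx2 and Tcf21 lie below 0 in both.

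Fetuses of the same sex came from different litters. In females Barx2 alone passed the study threshold (1 of 10, against 5.38% of probe sets), at 1.59 ± 0.25 (SD, n = 6) after CS and 1.92 ± 0.14 (SD, n = 4) after AIR, a difference of -0.33 (exact permutation p = 0.0381), a call lost when any 1 of 11 arrays was left out. In males 0 of 10 regulators passed it, against 4.91% of probe sets, 0 had an unadjusted limma p under 0.05, and Barx2 differed by -0.28 (95% confidence interval -0.59 to 0.02). Gata6 in males read 6.32 ± 0.16 (SD, n = 6) after CS and 6.51 ± 0.09 (SD, n = 5) after AIR, a difference of -0.19 with an exact permutation p of 0.0498, 1 of the tests made on 10 regulators, and a limma 95% confidence interval from -0.43 to 0.05. Tbx3 differed by -0.26 in females (95% confidence interval -0.64 to 0.11) and by -0.32 in males (95% confidence interval -0.67 to 0.02). The difference between the sexes in the CS effect had an unadjusted p under 0.05 for 0 of 10 regulators, against 4.41% of probe sets, and all limma adjusted p for it were 1. For Tbx3 that difference was 0.06, with an interval from -0.45 to 0.57 wide enough to hold effects as large as the pooled one.

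Epithelial maturity was measured in each lung as the mean log2 value of 14 alveolar type II cell genes, among them the surfactant proteins and the lipid transporter Abca3, with no regulator in the list. The index ran from 7.22 in the CS female numbered 7 to 8.65 in the AIR male numbered 2, and was lower after CS (7.97 ± 0.36, n = 12, against 8.37 ± 0.22, n = 9, SD, exact permutation p = 0.00736). Tbx3 rose with it. Its slope was 0.69 log2 units per unit of the index (SE 0.12, 95% confidence interval 0.44 to 0.94, limma adjusted p = 0.00184), with a Pearson r of 0.80 (permutation p = 3e-05) and a Spearman rho of 0.83 (permutation p = 1e-05, the smallest that 100000 resamples give) over 21 lungs. The lung lowest in the index had the lowest Tbx3 value, 6.11, and the lung highest in the index the highest, 7.36. Of 22180 genes, 200 (0.9%) had an absolute r with the index at least as large. At a false discovery rate of 10% Tbx3 was the only regulator of 10 with a slope, against 3.22% of all probe sets, and 3 of 10 had an unadjusted p under 0.05, against 11.4%.

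Inside groups of fetuses the relation of Tbx3 to maturity stayed positive, but it passed no permutation test within AIR lungs or in the higher range. The ranges and the sexes each mix CS and AIR lungs, and the CS lungs come from both ranges. Pearson r was 0.83 within CS lungs (n = 12, permutation p = 0.00072) and 0.60 within AIR lungs (n = 9, exact permutation p = 0.0893). It was 0.87 over the 11 lungs of the lower range (permutation p = 0.00055) and 0.38 over the 10 of the higher range (permutation p = 0.273), where the slope was 0.58 against 0.69 in the lower range and the difference of the slopes was not tested. In females r was 0.87 (n = 10, permutation p = 0.00189) and in males 0.73 (n = 11, permutation p = 0.00962). Without the 2 lungs farthest from the median index, the CS females numbered 7 and 9, r was 0.74 (n = 19, permutation p = 0.00039). With exposure in the same fit the slope was 0.66 (SE 0.15, limma adjusted p = 0.0362), and the CS difference of Tbx3 at equal maturity was -0.04 (95% confidence interval -0.26 to 0.18). With a mean for each exposure and range in the fit the slope was 0.52 and its adjusted p 0.703. The index and exposure are themselves related in these lungs, so their parts in the Tbx3 values cannot be told apart by these fits.

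**Figure D3:**
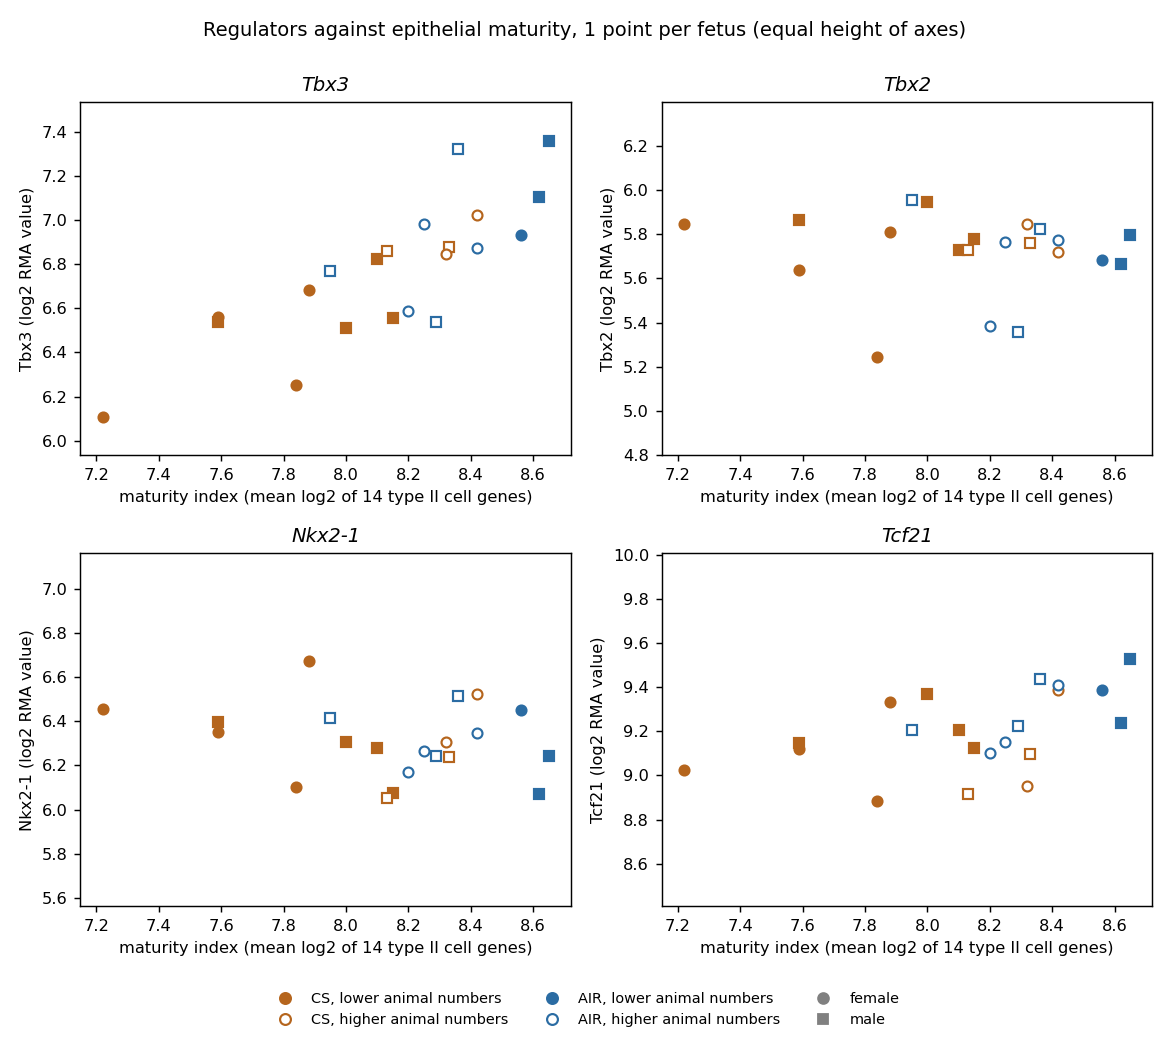
Log2 RMA values of Tbx3, Tbx2, Nkx2-1 and Tcf21 (vertical axes of equal height) against the maturity index, the mean log2 value of 14 type II cell genes (horizontal axes), 1 point per lung with symbols for group, range and sex. Tbx3 climbs from 6.11 to 7.36 along the index, while the slopes of Nkx2-1 and Tbx2 are -0.10 and -0.04.

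Nkx2-1 showed no rise with the maturity index that passed a test. Its slope was -0.10 (95% confidence interval -0.32 to 0.12), r was -0.22 (permutation p = 0.334) and rho -0.16 (permutation p = 0.485), and the least mature lung (6.45) read higher than the most mature (6.24). Gata6 had a slope of 0.17 (95% confidence interval -0.07 to 0.41), Id2 of -0.11 (95% confidence interval -0.34 to 0.11), Tbx4 of -0.11 (95% confidence interval -0.30 to 0.09), Tbx5 of 0.14 (95% confidence interval -0.09 to 0.37) and Tbx2 of -0.04 (95% confidence interval -0.29 to 0.21). For Elf5 the slope of -0.03 depended on a single lung and became 0.19 without the CS female numbered 7. Its r was -0.49 within CS lungs (permutation p = 0.104), 0.53 within AIR lungs (exact permutation p = 0.144, n = 9), -0.45 in females and 0.69 in males (n = 11, permutation p = 0.0179), and without the 2 farthest lungs it was 0.49 (n = 19, permutation p = 0.0319).

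Tcf21 and Barx2 leaned toward the mature lungs without passing the false discovery rate. Tcf21 had a slope of 0.24 (95% confidence interval 0.02 to 0.46, limma adjusted p = 0.375) with r of 0.48 and rho of 0.57 (permutation p = 0.0269 and 0.00853). Within AIR lungs r was 0.63 (n = 9, exact permutation p = 0.0672) and within CS lungs 0.17 (n = 12, permutation p = 0.602), and without the 2 farthest lungs 0.44 (n = 19, permutation p = 0.0606). Barx2 had a slope of 0.34 (95% confidence interval 0.02 to 0.66, limma adjusted p = 0.39), an r of 0.29 within CS and of -0.08 within AIR lungs, and 0.29 without the 2 farthest lungs. At equal maturity the CS difference was -0.24 for Barx2 (95% confidence interval -0.50 to 0.02), -0.17 for Id2 (95% confidence interval -0.35 to 0.02) and -0.11 for Tcf21 (95% confidence interval -0.30 to 0.08).

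**Figure D4:**
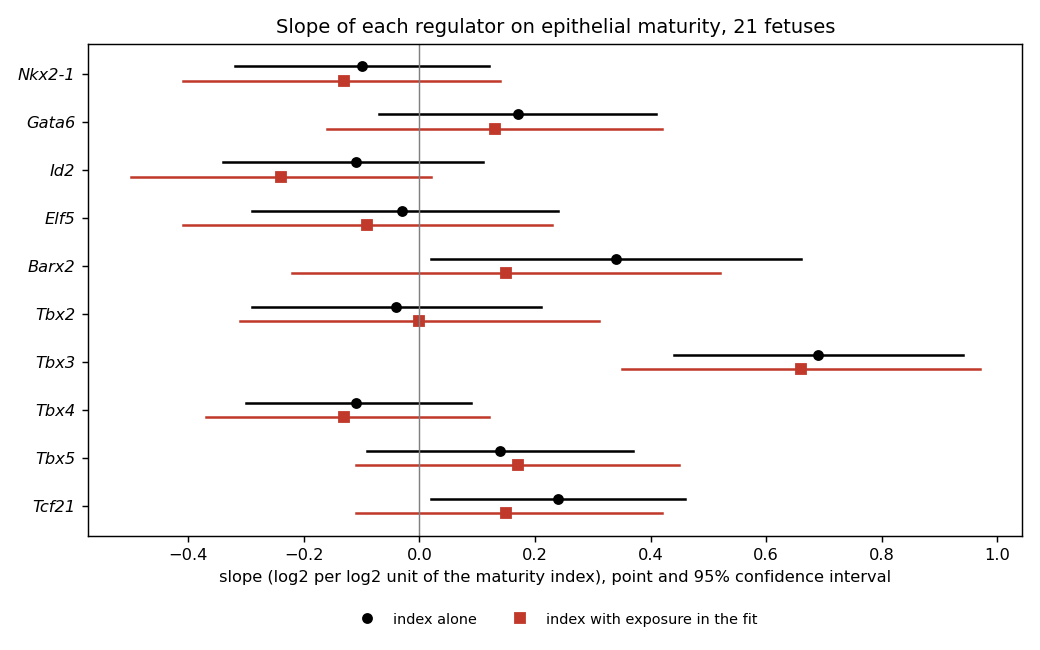
Slope of each regulator on the maturity index (log2 per log2 unit, horizontal axis) with 95% confidence intervals, from the index alone and with exposure in the fit. Tbx3 stands apart at 0.69 and 0.66, and the intervals of Tcf21 and Barx2 leave 0 only for the index alone.

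Tbx3 also followed the other lists of mature epithelium. Over the 21 lungs Tbx3 had r of 0.80 with the mean of 11 type I genes and 0.71 with 11 secretory genes. Its r was -0.68 with 13 genes of dividing cells, 0.22 with mesenchymal and -0.27 with general epithelial genes, and 0.01 with heart genes, an organ that also uses Tbx3. Nkx2-1 and Tbx4 instead ran with the general epithelial genes (r of 0.46 and 0.63), a list whose means were close in the pooled groups (6.12 ± 0.12, n = 12, in CS and 6.09 ± 0.08, n = 9, in AIR lungs, SD, exact permutation p = 0.528). By range the CS difference of that list was 0.13 in the lower (exact permutation p = 0.0606) and -0.09 in the higher (exact permutation p = 0.148). Gata6 had its highest r, 0.46, with the mesenchymal genes, and Id2 had 0.40 with the genes of dividing cells. The dividing-cell genes were higher after CS (5.53 ± 0.36, n = 12, against 4.99 ± 0.37, n = 9, SD, exact permutation p = 0.00341). With their mean as a covariate the Tbx3 difference between CS and AIR was -0.07 and that of Id2 -0.24 (unadjusted limma p = 0.00752, limma adjusted p = 0.989). These correlations share the same 21 arrays and are given as a description.

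**Figure D5:**
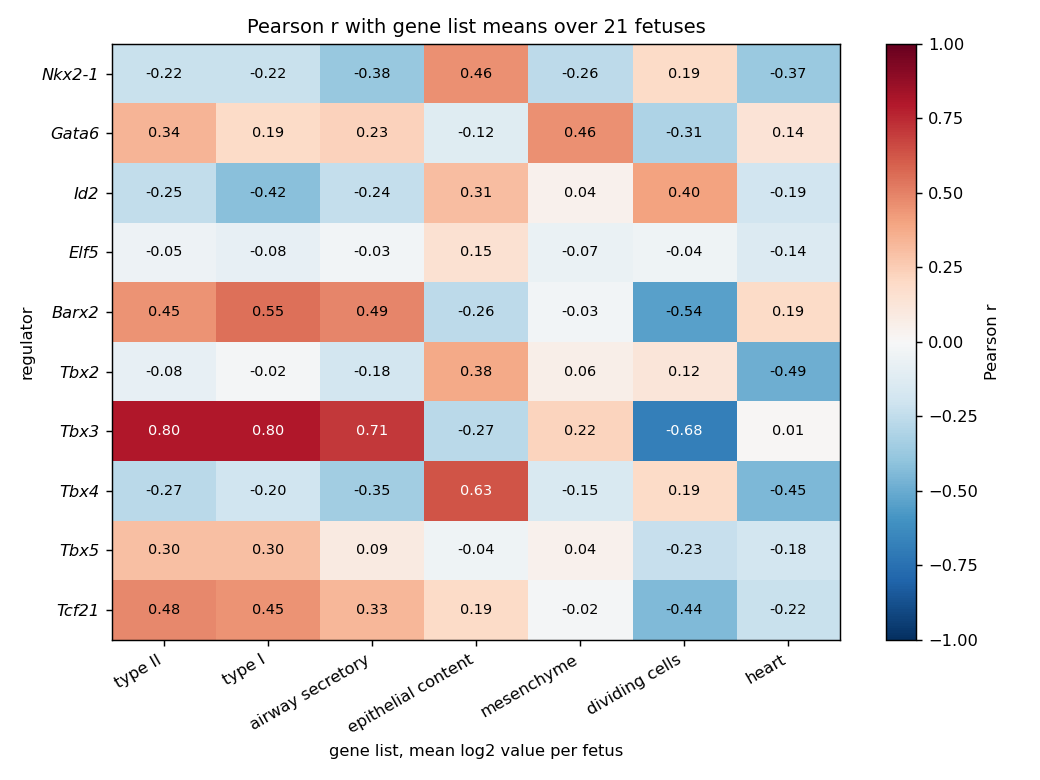
Pearson r over 21 lungs between each regulator (rows) and the mean log2 value of 7 gene lists (columns), with color from -1 to 1. The Tbx3 row runs from 0.80 for type II and type I genes to -0.68 for dividing cells, and the Tbx4 row peaks at 0.63 with general epithelial genes.

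Genes that depend on NKX2-1 were in part lower after CS. Of 15 such genes, 8 were lower after CS at the study threshold, where 2.19% of all probe sets were, and 0 higher, with a median difference of -0.35 against 0.001 over all probe sets, and in the maturity fit 13 of 15 had a positive slope at a false discovery rate of 10%, against 3.22% of all probe sets with a slope in either direction. Part of this is given by construction, since 9 of the 15 also form the index. The 6 outside the index included 2 lower after CS, the club cell secretoglobin Scgb1a1 (8.68 ± 0.75, n = 12, against 9.39 ± 0.45, n = 9, SD) and the type I cell water channel Aqp5 (5.04 ± 0.50, n = 12, against 5.51 ± 0.32, n = 9, SD), and 4 had a positive maturity slope. The mean of the 15 was 7.68 ± 0.28 (SD, n = 8) after CS and 8.35 ± 0.04 (SD, n = 3) after AIR in the lower range, and 8.10 ± 0.08 (SD, n = 4) and 8.05 ± 0.13 (SD, n = 6) in the higher range. The list was drawn up with results of these arrays known, so its direction is not independent evidence.

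Most partners of NKX2-1 and GATA6 were not called. Of 19, Foxp2 passed the study threshold as higher and Cebpa, a factor of type II cell maturation, as lower, 2 genes in all against 4.41% of probe sets in either direction, and the median difference over the list was 0.05. Foxp2 differed by 1.07 in the lower and by -0.08 in the higher range, and Cebpa by -0.59 and -0.06. Their maturity slopes were -1.15 (limma adjusted p = 0.000153) and 0.67 (limma adjusted p = 0.0024). They were the only partners with a slope at a false discovery rate of 10%, which 3.22% of probe sets passed. Zfpm1, a cofactor that binds GATA factors, had a slope of 0.45 (limma adjusted p = 0.129). Of 12 other genes of the distal tips, where Id2 and Elf5 act, 1 was higher after CS, again Foxp2, against 4.41% of probe sets in either direction. A maturity slope at a false discovery rate of 10% was found for 2, against 3.22% of probe sets. Both were negative, Foxp2 and the tip ligand Bmp4 (-0.46, limma adjusted p = 0.0933). Of 17 genes around the T-box and TCF21 factors in the mesenchyme, only Gli1, the readout of hedgehog signals, passed the study threshold, against 4.41% of probe sets. Gli1 read 3.52 ± 0.42 (SD, n = 12) after CS and 3.22 ± 0.09 (SD, n = 9) after AIR (limma adjusted p = 0.656). Its maturity slope was -0.61 (limma adjusted p = 0.0561), while the cell cycle inhibitor Cdkn1a, which TBX2 and TBX3 repress in mouse lung mesenchyme, had a slope of 0.50 (limma adjusted p = 0.167).

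Counts of called relatives of the regulators were near the share over all probe sets. That share was 4.41% past the study threshold in either direction and 3.22% with a maturity slope at a false discovery rate of 10%. None of 12 further T-box genes passed the study threshold or had a maturity slope at a false discovery rate of 10%. All but Mga, which lay above 91.4% of probe sets, were at or below the 64th percentile of probe sets. Of 21 relatives of the other regulators only Gata2, a factor of endothelial and blood cells, passed the study threshold. It read 4.45 ± 0.31 (SD, n = 12) after CS and 4.91 ± 0.26 (SD, n = 9) after AIR, a difference of -0.47 (limma adjusted p = 0.445), with -0.71 in the lower and -0.11 in the higher range. Gata2 also rose with the maturity index, with a slope of 0.78 (limma adjusted p = 0.00388), whereas Gata6 did not pass.

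The regulators shared few patterns with each other. Over the 21 lungs the highest r among the 45 pairs were 0.59 for Tbx3 and Tcf21, 0.55 for Tbx3 and Tbx5 and 0.53 for Tbx5 and Tcf21, while Tbx2 and Tbx3 reached 0.28 and Tbx4 and Tbx5 reached 0.27. Among 6958 other genes with a mean of at least 4, those most like Tbx3 over the 21 lungs were the surfactant lipid transporter Abca3 (r = 0.86), Mid1ip1 (0.86) and the integrin subunit Itga3 (0.85). Abca3 is a gene of the index. Nkx2-1 was most like Stk25 (0.75), Foxp4, a forkhead factor of lung epithelium (0.73), and Trappc6a (0.73). Tbx5 was most like the matrix proteoglycan Bgn (0.72), the branching ligand Fgf10 (0.71) and Rab11b (0.71), and Tcf21 was most like Vsig2 (0.80), Grb14 (0.79) and the endothelial receptor Tie1 (0.78). Gata6 was most like Cckar, Mamld1 and Tmed10, Id2 like Swi5, Nfxl1 and Mtx2, Elf5 like Daam1, Ppp1r37 and Tlk2, and Barx2 like Spock2, a type I cell gene, Dpep1 and Scarb1. Tbx2 was most like Tet3, Znrf3 and Slc9a5 and Tbx4 like Crtc2, Ednrb and Zfp618, and for these 6 regulators the highest r lay between 0.73 and 0.78. These are the largest of many correlations over the same arrays and carry no test.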

How the data were processed

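Lungs of 21 fetuses were measured on Affymetrix Mouse Gene ST 2.1 arrays. The authors made the deposited log2 values with Affymetrix Expression Console 1.3.0.187 (RMA: background correction, sketch-quantile normalization, median polish), left out 3 AIR arrays after quality control and set aside redundant probe sets. The genome build behind the probe sets is not given in the sources used here, and calls of detection above background were not used here. The array number limits the precision.

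The table holds 41345 probe sets, of which 23521 are annotated with a lone gene symbol (23328 of them matched by gene number), 1820 with more than that and 16004 without any. After removal of 802 redundant probe sets, 40543 were fitted with lmFit and eBayes of limma 3.58.1 (R 4.3.3), with Benjamini-Hochberg adjustment over all of them. Fits used exposure, exposure by sex, exposure by number range, or the maturity index. Only the fits of exposure and of the maturity index were tested on simulated data, in which arrays were independent of each other. Single values were compared by exact permutation, two-sided, and correlations by 100000 resamples (exact for 9 lungs), using scipy 1.17.1 and numpy 2.4.6 (Python 3.11.15). Permutation p are not adjusted over genes; the limma adjusted p covers all probe sets.

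The regulators and all lists were chosen with earlier results of these data known. Named genes are the 10 regulators, the 3 genes most like each, and the 3 lowest p of each further list in either fit, with others named where a count of 5 or fewer called for it. Some list genes had no probe set of their own: of 13 distal tip genes 12 matched, of 13 T-box genes 12 and of 14 dividing-cell genes 13. Replicate numbers occur in both groups but were not used to pair the samples in the main fits. Alternatives changed the probe sets, normalization, weights, blocks, covariates, index, threshold and arrays.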

Additional observations from a re-analysis of the deposited data

Results flagged for a closer look

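In females after CS, the Tbx2 value of the fetus numbered 8, 5.24, lay far below the other 5 females, whose values ran from 5.64 to 5.85. The same lung carried the highest heart gene mean of the series, 6.95, and raised thymus genes. The part of those tissues in the Tbx2 value was not tested. A gap of this size arises by chance in about 1 in 20 groups, and 50 groups were looked at with 1 such value found.

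The CS effect on Tbx3 differed by -0.68 between the lower and the higher animal numbers, -0.63 against 0.06 (unadjusted limma p = 0.00462, adjusted p = 0.439 over all probe sets). All 8 CS lungs of the lower range lay below its 3 AIR lungs. What separates the ranges is not stated, and the type II index and the dividing-cell genes differed between CS and AIR in the lower range too, by -0.81 and 0.97. Over all fetuses the CS difference of Tbx3 was -0.04 with the type II index and -0.07 with the dividing-cell genes as a covariate. Their parts in the Tbx3 difference within the lower range were not tested.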

How the results depend on the processing

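The count of regulators past the study threshold, 2 among all fetuses, was 1 with a filter on mean values of at least 4, which removes Barx2, 1 within the lower animal numbers, and 0 within the higher animal numbers, with the maturity index or with the dividing-cell genes as a covariate, and at an adjusted p under 0.10. Leaving out single arrays gave 1 to 2 among all fetuses, 0 to 1 in females and 0 to 1 in males. The count of 1 in females became 0 with the number range as a block. Barx2 lost the fold limit without the CS male numbered 2 (-0.26). In females the call was lost without any 1 of 11 arrays (CS numbered 5, 7, 8, 9 or 11, AIR numbered 1, 3, 5, 6, 7 or 8), and in males 1 was gained without CS numbered 1 or 6 or AIR numbered 2, 3 or 5.

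Regulators near 0 changed sign. Nkx2-1 went to -0.05 in the replicate block, -0.02 with heart genes, -0.04 with the maturity index, -0.04 with dividing-cell genes as covariates and -0.05 in the higher range, Tbx4 to -0.01, -0.02, -0.01 and -0.04 under the last 4 of these, and Tbx5 to 0.04 with the index, 0.02 with dividing-cell genes, 0.06 in the higher range and 0.01 without arrays high in other tissue. In the higher range Gata6 read 0.03 and Tbx3 0.06. Without single arrays Nkx2-1 ran from -0.02 to 0.04 and Tbx5 from -0.07 to 0.00.

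The 1 regulator with a maturity slope at a false discovery rate of 10%, Tbx3, was called with the type I and the secretory genes as index, with exposure, number range, sex, heart or general epithelial genes as covariates, without any single array (0.63 to 0.73) and without the arrays high in other tissue (0.68). The count was 0 with general epithelial genes as index, with exposure by number range or dividing-cell genes as covariates and in the replicate block, and 3 at an unadjusted p under 0.05; the cause was not tested. The Tbx3 slope was 0.74 (unadjusted p = 0.00803, adjusted p above 0.10) with dividing-cell genes and 0.52 (adjusted p = 0.703) with exposure by number range. With general epithelial genes as index slopes turned to 0.72 for Nkx2-1, -0.21 for Gata6, 0.49 for Id2, 0.29 for Elf5, -0.69 for Barx2, 0.66 for Tbx2, -0.80 for Tbx3, 0.85 for Tbx4 and -0.06 for Tbx5. Signs also turned for Elf5 with the number range (0.04), for Gata6 with exposure by range (-0.03), for Tbx2 with heart genes (0.01), for Nkx2-1 (0.00), Elf5 (0.02), Tbx2 (0.07) and Tbx4 (0.02) with general epithelial genes, and for Id2 (0.20), Barx2 (-0.08) and Tbx2 (0.05) with dividing-cell genes as covariates. Without single arrays the slope ran from -0.17 to 0.01 for Id2, from -0.09 to 0.19 for Elf5 and from -0.10 to 0.01 for Tbx2.

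Same-numbered lungs of the groups did not deviate together (correlations of -0.07 to 0.13, 1 of 9 over 0.1). Whether they share anything besides a number is not stated, and these correlations cannot decide it. With a replicate block over the 18 numbered lungs the count past the study threshold stayed 2, with -0.38 for Tbx3 and -0.37 for Barx2, and the Tbx3 slope was 0.62 with an adjusted p of 0.257.

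Over all alternatives, 338 single differences and 333 single slopes kept their direction and call. A call was lost in 10 and 3, and the direction changed in 21 and 23. Only Barx2 and Tbx3 for exposure and Tbx3 for the slope had a call to lose, so most kept results are of regulators that stayed uncalled. Barx2 lies near the background of the arrays, and the lower range holds only 3 AIR lungs.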
